A study of Mus musculus with 6 samples.

Results

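The IL-1 family cytokines and receptors were 9 genes, Il1a, Il1b, Il18, Il33, Il1rn, Il1r1, Il1r2, Il1rap and Il1rl1, taken by gene name from the 41386 genes measured by bulk RNA-seq in mouse hippocampus. All 9 were found on 1 row each, and all 9 passed the filter on low counts that left 18569 genes for testing. Of the 50-base stretches of a member's transcripts, 0 to 0.126% also occur in transcripts of other genes. The IR24 group comprised 3 libraries from mice in which the left middle cerebral artery was blocked by a filament for 1.5 h (middle cerebral artery occlusion, MCAO) and then reperfused for 24 h. The Sham group comprised 3 libraries from mice that had the same surgery without the filament. All mice were wild-type males aged 56 days, of the strain C57BL/6 in the labels and C57BL/6J in the study's methods, each library was made from the pooled hippocampi of several mice on the operated side, operated on under isoflurane. The libraries held 37493042 to 44788547 counted reads. Markers of neurons such as Prox1, Rbfox3 and Snap25 were present in every library, as a label of brain tissue implies. Markers of choroid plexus, the epithelium that lies beside the hippocampus in the ventricle, ranged from 149.6 to 6387 in summed CPM, the read counts scaled to library size and split both groups. IR24 replicate 3 and Sham replicate 1 held the least.

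The IL-1 family is a group of alarm cytokines and their receptors that share 1 signalling route. IL-1α and IL-1β bind the receptor IL-1R1, which then recruits the accessory chain IL-1RAP and, through MyD88 and IRAK kinases, activates NF-κB. IL-33 uses the same accessory chain with its own receptor ST2, the product of Il1rl1, and IL-18 uses a separate receptor pair. The family carries its own brakes. The antagonist IL-1Ra (Il1rn) occupies IL-1R1 without signalling, and IL-1R2 binds IL-1 but lacks a signalling domain. In brain, IL-33 is stored in the nuclei of glial cells, IL-1 comes largely from microglia and from blood cells that enter injured tissue, and IL-1R1 is found on endothelium and on some neurons.

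At 24 h of reperfusion, 7 of the 9 members were higher in IR24 than in Sham, 0 were lower and 2, Il18 and Il1rap, did not pass. A member was called where edgeR's quasi-likelihood test gave a Benjamini-Hochberg adjusted p under 0.05 and the levels differed by more than 1.2-fold. By this rule 21.8% of all genes tested were higher, 19.9% were lower and 41.8% passed in either direction. With a limit of 2-fold 6 members were higher, beside 10.2% of all genes, and without the TMM factors that scale the libraries for their composition 8 were higher, beside 34.1%. The antagonist Il1rn went from 0 reads in every Sham library to 268 or more in every IR24 library, Il1b and the decoy receptor Il1r2 rose 14.6-fold and 13.2-fold (7.67-fold and 8.9-fold without IR24 replicate 1), and Il33 rose 6.57-fold from a level that was already high. The signalling receptor Il1r1 rose by only 1.56-fold. The median log2 fold change of the members was 2.17, also with Il1rn set at its lower bound, against 0.03 for all genes tested. On TMM-scaled CPM the groups did not overlap for any of the 9 members, Il18 included (its FPKM did), but 57.4% of all tested genes had groups that did not overlap. In such bulk tissue more cells of a type and more RNA per cell cannot be told apart.

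**Figure D1:**
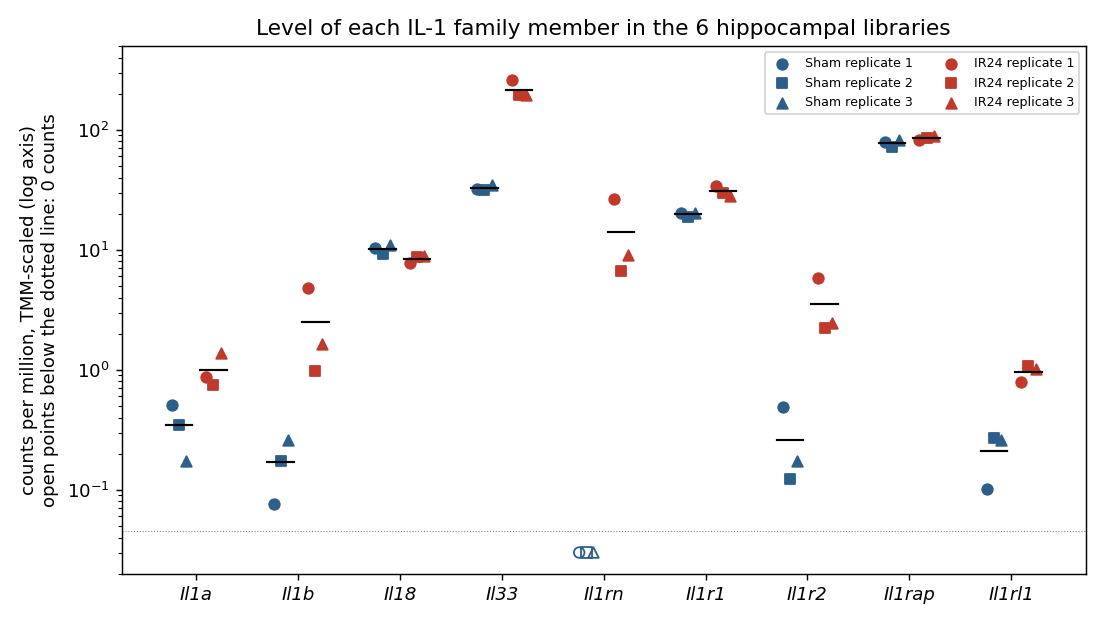
Level of each member in each of the 6 libraries, as CPM on TMM-scaled library sizes on a log axis, with Sham in blue, IR24 in red, replicates by point shape and group means as black bars. Il33 and Il1rap were the members with the highest CPM, Il1rn was at 0 in all 3 Sham libraries, and IR24 replicate 1 stood above the other IR24 libraries for Il1b, Il1rn and Il1r2.

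Among the ligands, Il1b, the classical secreted IL-1, lies on the minus strand at chr2:127630840-127637653 of the BALB/cJ assembly on which the table gives its positions. It had 219, 39 and 66 reads in IR24 replicates 1 to 3 and 3, 7 and 9 in Sham, or 2.48 ± 2.05 against 0.170 ± 0.0924 CPM (SD, n = 3). All IR24 libraries were above all Sham libraries, but replicate 1 had 4.93 times the CPM of replicate 2. The log2 fold change was 3.86 (SE 0.73, adjusted p = 0.00468), and it was 2.94 without IR24 replicate 1, still past the threshold.

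Il1a, which encodes the IL-1 that is active without cleavage and is released from damaged cells, lies beside Il1b at chr2:127573701-127584061 on the same strand. Its counts were 40, 30 and 55 in IR24 and 20, 14 and 6 in Sham, 1.0 ± 0.33 against 0.344 ± 0.169 CPM. The groups did not overlap, although the lowest IR24 value, 0.750 CPM, was close to the highest Sham value, 0.512 CPM. Its log2 fold change was 1.52 (SE 0.48, adjusted p = 0.0362), the weakest call among the members: it was past the threshold in 10 of 16 alternative analyses. It was lost when IR24 replicate 2 (adjusted p = 0.0515), IR24 replicate 3 (0.124), Sham replicate 2 (0.104) or Sham replicate 3 (0.103) was left out, in the comparison of 2 against 2 libraries that held choroid plexus RNA (0.0917) and in 1 further alternative.

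Both genes have a partner on the opposite strand that overlaps them, Gm14023 for Il1a and Il1bos for Il1b. The source does not say whether reads were counted by strand, so reads of the partners could not be told from those of the ligands. The partners had few reads, 7, 12 and 16 in IR24 against 9, 4 and 5 in Sham for Gm14023, and 9, 2 and 6 against 6, 6 and 0 for Il1bos. In Sham these counts were of the same order as those of the ligands themselves.

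To show the DNA in front of members that rose, the 250 bases before the transcription start are given 5′ to 3′ from RefSeq on GRCm38.p6, a build other than that of the table. RefSeq promoter windows were found for all 9 members, 14 windows in all, since Il33, Il1rn, Il1r1 and Il1rl1 have more than 1 start. Capitals mark matches on either strand to the AP-1 motif TGANTCA, which 6.75% of 32851 windows of all genes hold, and to the NF-κB consensus, which 7.25% hold. The AP-1 motif was found in 2 of the 14 windows, 1 of Il1a and 1 of Il1rn, and the NF-κB consensus in 1, a window of Il1r1. The C/EBP motif TTNNNNAA, which is so loose that 57.7% of all windows hold it, was found in 12 of the 14 and is not marked. In the sequences shown its matches were apart from those marked, except in the window of Il1r1, where the 2 overlap. Il1a is shown for a match at bases 12 to 6 before its start and Il1b as the neighbouring ligand that rose more, with no match to the AP-1 motif or to the NF-κB consensus in this window.
Il1a, chr2:129309973-129310222, minus strand: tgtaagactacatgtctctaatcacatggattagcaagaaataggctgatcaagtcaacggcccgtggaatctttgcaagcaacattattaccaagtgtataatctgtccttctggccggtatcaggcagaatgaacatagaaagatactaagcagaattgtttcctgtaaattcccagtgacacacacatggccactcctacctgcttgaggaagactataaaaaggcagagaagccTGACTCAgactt
Il1b, chr2:129371140-129371389, minus strand: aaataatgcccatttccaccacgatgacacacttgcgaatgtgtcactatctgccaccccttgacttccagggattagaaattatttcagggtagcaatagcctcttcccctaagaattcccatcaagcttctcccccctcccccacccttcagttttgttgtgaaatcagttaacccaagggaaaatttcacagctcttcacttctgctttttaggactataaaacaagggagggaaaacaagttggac

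Il33, the nuclear alarm cytokine of glia, lies on the plus strand at chr19:27032185-27068020. It had 11908, 7757 and 7741 reads in IR24 and 1262, 1292 and 1192 in Sham, and in IR24 it was the most abundant ligand per length. In CPM these were 261.6, 194.0 and 193.6 against 32.3, 31.8 and 34.6, so that the Sham libraries lay within 1.09-fold of each other and the lowest IR24 library was far above them. The log2 fold change of 2.72 (SE 0.14, adjusted p = 0.000116) was the most precise of the large changes, and it stayed between 2.56 and 2.98 in all 16 alternatives.

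Il18, the ligand that caspase-1 cleaves together with IL-1β, lies at chr9:47686299-47693122 and did not follow the other ligands. It had 352, 347 and 354 reads in IR24 and 405, 372 and 375 in Sham, 8.42 ± 0.603 against 10.1 ± 0.896 CPM. The log2 fold change was -0.27 (SE 0.14, adjusted p = 0.156), with a 95% interval from -0.59 to 0.05, and no alternative called it. Its size rests on the scaling between libraries, since without the TMM factors the log2 fold change was -0.02, and its FPKM overlapped between the groups. Leaving out the TMM factors moved the median of all genes from 0.03 to 0.28, and the share of higher genes among all calls from 52.3% to 75.8%.

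The antagonist Il1rn lies on chromosome 2 as well, at chr2:21391263-21405906 on the plus strand. No read was counted in any Sham library, and 1205, 268 and 363 were counted in the IR24 libraries, which is 26.5, 6.70 and 9.08 CPM. Against the floor of 3 counts in each Sham library, the mean of Il1rn over the IR24 libraries was at least 178-fold higher (adjusted p = 0.00143). Without IR24 replicate 1 that mean was at least 99.5-fold higher, and Il1rn was called in all 16 alternatives. The gene makes a secreted and several intracellular forms of IL-1Ra, which the gene counts do not separate. Of its 3 RefSeq starts, the one whose window holds the AP-1 motif is shown.
Il1rn, chr2:24336610-24336859, plus strand: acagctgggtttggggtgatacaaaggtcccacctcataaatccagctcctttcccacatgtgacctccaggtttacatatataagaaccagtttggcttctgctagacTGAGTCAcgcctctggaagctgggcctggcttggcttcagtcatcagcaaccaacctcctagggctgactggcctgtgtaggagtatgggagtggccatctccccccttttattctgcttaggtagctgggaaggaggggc

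The receptor genes Il1r1, Il1r2 and Il1rl1 form a cluster on chromosome 1, and all were higher in IR24, by very different amounts. Il1r1, the signalling receptor for IL-1, lies at chr1:37561115-37657094. It had 1550, 1194 and 1133 reads in IR24 and 794, 761 and 692 in Sham, 30.8 ± 2.96 against 19.7 ± 0.873 CPM. The rise was small and even, with a log2 fold change of 0.64 (SE 0.11, adjusted p = 0.00273), and it was called in all 16 alternatives. Of its 2 RefSeq starts, the one whose window holds the NF-κB consensus is shown, with the match on the strand opposite to that printed.
Il1r1, chr1:40266336-40266585, plus strand: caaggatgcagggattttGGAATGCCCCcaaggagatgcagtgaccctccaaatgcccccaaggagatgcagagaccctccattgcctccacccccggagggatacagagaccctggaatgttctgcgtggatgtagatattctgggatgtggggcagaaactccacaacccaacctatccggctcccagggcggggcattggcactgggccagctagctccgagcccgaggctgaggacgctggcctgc

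Il1r2, the decoy receptor, lies upstream of Il1r1 at chr1:37417115-37471738. It had 263, 90 and 99 reads in IR24 and 19, 5 and 6 in Sham, 3.50 ± 1.98 against 0.261 ± 0.197 CPM. Its log2 fold change was 3.73 (SE 0.60, adjusted p = 0.00248). In each group replicate 1 was the highest, and the log2 fold change was 3.15 without IR24 replicate 1 and 4.54 without Sham replicate 1. Gm16894 overlaps Il1r2 on the opposite strand, with 29, 37 and 35 reads in IR24 and 60, 41 and 45 in Sham, more than Il1r2 had in Sham, so the Sham level of Il1r2 is uncertain where reads were not counted by strand.

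Il1rl1 encodes ST2, the receptor for IL-33, both as the membrane form and as a soluble form that traps IL-33, and gene counts do not separate these forms. It lies at chr1:37775382-37805172 and was the least abundant member in IR24 per length. It had 36, 43 and 41 reads in IR24 and 4, 11 and 9 in Sham, 0.964 ± 0.152 against 0.212 ± 0.0946 CPM. The IR24 libraries were even, with replicate 1 the lowest. The difference was 2.17 on the log2 scale (SE 0.46, adjusted p = 0.00763), called in 15 of 16 alternatives. The exception was the same comparison of 2 against 2 libraries (log2 fold change 1.78, adjusted p = 0.0555).

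Il1rap, the accessory chain that IL-1R1 and ST2 share, lies at chr16:23381415-23528814. It had 3777, 3446 and 3546 reads in IR24 and 3101, 2944 and 2818 in Sham, 85.9 ± 2.85 against 77.9 ± 4.91 CPM. The log2 fold change was 0.14 (SE 0.08, adjusted p = 0.200), with a 95% interval from -0.05 to 0.33. It was called in 3 of 16 alternatives, those without scaling for library composition. These were library size only (0.40, adjusted p = 0.00581), limma on log2(FPKM + 1) (0.38, adjusted p = 0.00839) and limma on log2(FPKM + 0.1) (0.40, adjusted p = 0.0078). In them the median of all genes was also higher, at 0.18 to 0.28 against 0.03.

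**Figure D2:**
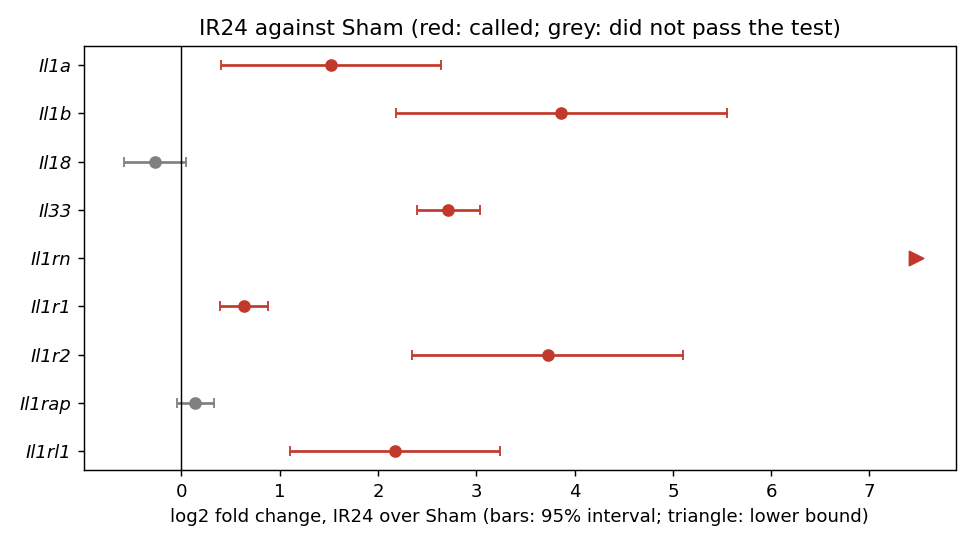
Log2 fold change of each member, IR24 over Sham, with its 95% interval from the edgeR fit; red members were called and grey ones were not, and the triangle for Il1rn marks a lower bound of 7.47. The intervals of Il18 and Il1rap include 0, and those of Il1b and Il1r2 are wide.

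The levels of the members were then compared with each other per transcript length, in the authors' FPKM, fragments scaled to transcript length and library size. In Sham, Il1rap (25.2) and Il33 (23.0) led and overlapped each other, followed by Il18 (13.2) and Il1r1 (4.87), each separate from its neighbours. Il1r2 (0.266), Il1b (0.193), Il1a (0.160) and Il1rl1 (0.0662) followed, each overlapping the next, and Il1rn was at 0. In IR24, Il33 stood first at 181 ± 41.9 FPKM, ahead of Il1rap at 33.2 ± 0.653. Il18 (13.1), Il1rn (10.9) and Il1r1 (9.09) came next, each overlapping the next, then Il1r2 (4.32) and Il1b (3.44), which overlapped, then Il1a (0.552) and Il1rl1 (0.359). Il33 thus made up 69.9% to 71.2% of the summed FPKM of the members in the IR24 libraries and 33.4% to 35.4% in Sham. The FPKM values imply gene lengths that differ from the length column of the table for 7 of the 9 members; with the length column Il18 (13.2) stood above Il33 (11.8) in Sham, overlapping it, and Il33 remained first in IR24 at 93.4.

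Ratios of members within a library do not depend on the scaling between libraries. They were tested by an exact two-sided permutation test over the 6 libraries, whose smallest possible p is 0.1, so none of the 5 could pass. The antagonist Il1rn over its competing ligands Il1a plus Il1b was 2.85, 2.90 and 2.28 in the IR24 libraries, so it varied little although Il1b and Il1rn themselves varied by more than 3-fold. In Sham this ratio is set by the 0.01 FPKM added to both sides, since Il1rn was at 0. The decoy over the signalling receptor, Il1r2 over Il1r1, was 0.699, 0.311 and 0.361 in IR24 and 0.10, 0.0292 and 0.0377 in Sham, a log2 difference of 3.16 (exact p = 0.1, adjusted over the 5 ratios 0.125). The accessory chain over the signalling receptor, Il1rap over Il1r1, was lower in every IR24 library (3.19, 3.78 and 4.10) than in every Sham library (5.11, 5.06 and 5.33), a log2 difference of -0.49 with the same p-values. Il18bp, the soluble inhibitor of IL-18, over Il18 was 0.340, 0.261 and 0.193 in IR24 and 0.155, 0.131 and 0.132 in Sham, a log2 difference of 0.89 with the same p-values. The ratio of the receptor Il1rl1 to its ligand Il33 overlapped between the groups (log2 difference -0.60, exact p = 0.3, adjusted 0.3). This depends on the 0.01 FPKM added, since Il1rl1 in Sham was at 0.0323 to 0.0841 FPKM. With 0.1 FPKM added, the log2 difference was -1.48 (exact p = 0.1).

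**Figure D3:**
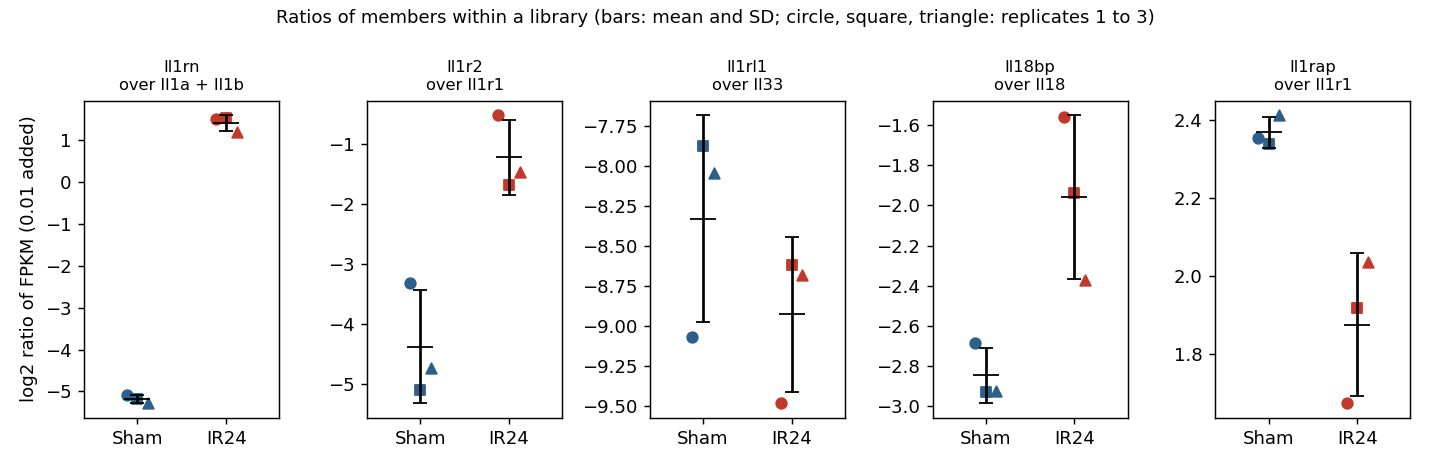
Log2 ratio of FPKM within each library, with 0.01 added to both sides, for 5 pairs of members or of a member and its inhibitor; bars are group means and SD over 3 libraries and point shapes are replicates. The panels have separate axes, the Sham values of the first panel follow from 0 reads of Il1rn, and the third panel is the one in which the groups overlap.

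The 3 IR24 libraries differed from each other in the same order for several members. IR24 replicate 1 was the highest for 5 members, Il1b, Il33, Il1rn, Il1r1 and Il1r2, and not for the other 4, Il1a, Il18, Il1rap and Il1rl1. In replicate 1, Il1b was at 1.94 times, Il1rn at 1.88 times and Il1r2 at 1.65 times the IR24 mean, whereas Il33 was at 1.21 times and Il1r1 at 1.11 times. The same library had the highest sums of neutrophil markers (41.0 CPM, against 10.7 and 10.8 in the other IR24 libraries and 4.48 to 5.89 in Sham), of monocyte and macrophage markers (277.8 CPM, against 123.1 and 135.5, and 22.8 to 26.5 in Sham) and of endothelial markers (667.8 CPM, against 425.2 and 499.0, and 298.7 to 304.0 in Sham). It was also the highest IR24 library for microglial markers (381.1 CPM, against 276.5 and 322.4), for fibroblast and meningeal markers (374.3 CPM, against 252.6 and 310.5) and for oligodendrocyte markers (7696 CPM, against 6563 and 6954), whose sums overlapped between IR24 and Sham. It had the lowest sum of neuron markers, 2129 CPM, against 3870 and 4275 and 7503 to 7849 in Sham. Cd14 alone, with 8213, 3311 and 2804 reads in IR24 replicates 1 to 3, made up most of the IR24 sum of monocyte and macrophage markers. Ccr2, the first marker of that list, had 83, 23 and 87 reads, so IR24 replicate 3 was its highest. Every other marker found of that list had its most reads in IR24 replicate 1. The part of these cell types in the members' rise was not tested. Without IR24 replicate 1, all 7 calls held, with log2 fold changes of 2.94 for Il1b, 3.15 for Il1r2, 2.56 for Il33 and 0.56 for Il1r1.

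**Figure D4:**
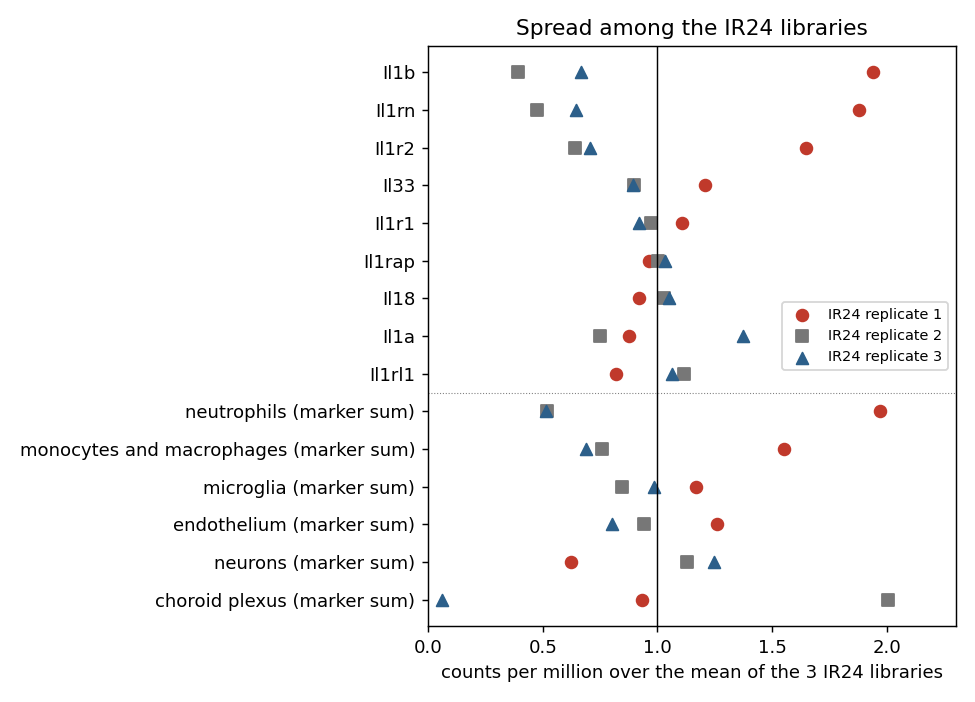
CPM of each member, and summed CPM of 6 marker lists, in each IR24 library over the mean of the 3 IR24 libraries. IR24 replicate 1 lies at 1.94 for Il1b and 1.97 for the neutrophil markers and at 0.622 for the neuron markers, while Il1rl1, Il18 and Il1rap lie near 1 in all 3 libraries.

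By list, 4 of 6 tested neutrophil markers were higher (S100a8 with 671, 143 and 118 reads in IR24 and 20, 7 and 5 in Sham), but the defining marker Ly6g had 1 read in all. Of the 10 tested markers of monocytes and macrophages 8 were higher, and of the 9 endothelial ones 8 were higher and 1 lower. Microglial markers were mixed, with 3 higher and 4 lower of 10, and their sum overlapped between IR24 (276.5 to 381.1 CPM) and Sham (278.6 to 315.6 CPM). All 9 tested neuron markers were lower. Of the markers of cells known to respond to IL-33, 1 of 6 tested T and innate lymphoid cell markers was higher, and 0 of 2 tested mast cell markers were higher and 1 lower. Cd3e, Cd3g and Gata3 of the first list and Fcer1a, Ms4a2 and Mrgprb1 of the second had at most 3 reads in any library. The lower mast cell marker was Kit, at 119.6 CPM in Sham and 56.7 CPM in IR24. It made up nearly all of the mast cell sum, 120.3 to 125.8 CPM in Sham. Cpa3, Tpsb2 and Mcpt4, the first 3 of that list, had Sham means of 0.0804, 0.199 and 0.134 CPM. The fall of Kit thus cannot be assigned to mast cells. Apart from Kit and Hdc, the mast cell markers were too low to be tested. Of the remaining lists, 2 astrocyte markers were higher and 5 lower of 10, 2 oligodendrocyte markers higher and 3 lower of 10, 4 fibroblast and meningeal markers higher of 8, and 0 of 12 choroid plexus markers passed in either direction. Among all genes tested, 21.8% were higher and 19.9% lower. The share higher was near this for astrocyte (20%), oligodendrocyte (20%) and T and innate lymphoid cell markers (16.7%).

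The other genes of the family differed in level and in how firmly they were called. Of the 11 genes found, 5 were tested, of which 2 were higher (40%, beside 21.8% of all genes tested) and 0 lower. Il1rl2, also on this list, was not found by name. The number called in either direction was 1 without Sham replicate 3 and 5 without IR24 replicate 3. With DESeq2, run on 28949 genes without the count filter so that more of the 11 could be called, it was 6. Il18rap, the accessory chain of the IL-18 receptor, had 112, 65 and 52 reads in IR24 and 15, 1 and 3 in Sham (log2 fold change 3.41, SE 0.72, adjusted p = 0.00715), while its partner Il18r1, the chain that binds IL-18, had at most 2 reads in any library. Sigirr, a receptor known to dampen IL-1 signalling, had a log2 fold change of 1.42 (SE 0.34, adjusted p = 0.0123), which lost its call without Sham replicate 3 (adjusted p = 0.051). The values that did not pass were 0.64 for Il18bp (adjusted p = 0.0566), -0.61 for Il1rapl1 (0.0757) and -1.03 for Il1rapl2 (0.0837), the last 2 being synaptic relatives of Il1rap. Il1f9, an older name of the gene for IL-36γ, had 35, 8 and 7 reads in IR24 and 0 in every Sham library, at least 4.81-fold higher (2.37-fold without IR24 replicate 1), but was too low to be tested. Il1f5, Il1f6, Il1f8 and Il1f10 had 0 reads in all 6 libraries.

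Genes that process and release IL-1 and IL-18 were measured next. Of the 15 tested, 10 were higher (66.7%, beside 21.8% of all genes tested) and 2 lower (beside 19.9%). Their median log2 fold change was 0.63, against 0.03 for all genes tested. The highest were Casp4 (3.83, SE 0.49, adjusted p = 0.00117), the caspase that senses cytosolic lipopolysaccharide, Casp8 (2.09, SE 0.25, adjusted p = 0.000947) and Nlrp3 (2.0, SE 0.47, adjusted p = 0.0118), the sensor of the inflammasome that activates caspase-1. Casp1 itself, named after its values were seen, had a log2 fold change of 1.94 (SE 0.33, adjusted p = 0.00315). Capn1, a calpain, fell by 0.69 on the log2 scale (adjusted p = 0.00527), as did the pore-forming Gsdme by 0.35 (adjusted p = 0.0434), the latter found under its older name Dfna5 and, as the fifth, named beyond the rule for this list. The call of Gsdme was lost without IR24 replicate 2 (adjusted p = 0.113), Sham replicate 1 (0.123), Sham replicate 2 (0.123) or Sham replicate 3 (0.082).

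Of 24 tested genes that carry the signal from the receptors, 11 were higher, 1 was lower and 12 did not pass. The share higher was 45.8%, beside 21.8% of all genes tested. Their median log2 fold change was 0.25, against 0.03 for all genes tested. The highest were Irak3 (2.27, SE 0.46, adjusted p = 0.00619), an IRAK that acts as an inhibitor, the shared adaptor Myd88 (2.05, SE 0.18, adjusted p = 0.000375) and the kinase Map3k8 (1.80, SE 0.27, adjusted p = 0.00204). Peli3, a ubiquitin ligase of the Pellino family, fell by 0.78 on the log2 scale (adjusted p = 0.0024).

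Of the 21 tested genes that IL-1 is known to induce, 20 were higher (95.2%, beside 21.8% of all genes tested) and 0 lower. They respond to other signals of NF-κB as well. Their median log2 fold change was 5.11, or 4.88 with those of at most 3 reads in every Sham library set at that floor. The list held 25 genes, of which 23 were found by name. Ptgs2 and Nfkbiz were not found, and Ccl20 and Csf2 were too low to be tested. Genes with almost no Sham reads, such as Mmp3, Cxcl2 and Saa3, passed the count filter only through IR24, where they were high. The share higher was thus partly set by the filter. Mmp3, a matrix protease, had 1548, 930 and 604 reads in IR24 and 0 in Sham, at least 304-fold higher (adjusted p = 0.000345). The chemokine Cxcl2, with 483, 165 and 53 reads in IR24 and 0 in Sham, was at least 67.5-fold higher (adjusted p = 0.004). The acute phase gene Saa3 had 1511, 241 and 259 reads in IR24 and 2 in all of Sham, a ratio of 914 with an exact 95% interval from 253 to 7554 that covers counting error only (adjusted p = 0.00106). Without IR24 replicate 1 the limit for Cxcl2 was 34.4-fold and the ratio for Saa3 was 357, and without Sham replicate 1 the ratio for Saa3 was 601.4. The exception, named after its values were seen, was Mmp9 (log2 fold change 0.61, adjusted p = 0.105). The summed level of the list followed the library order of Il1b only in part, with 916.0, 527.3 and 373.0 CPM in IR24 replicates 1 to 3, against 55.9 to 66.3 CPM in Sham.

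Of 12 genes linked to IL-33 and ST2, 6 were tested and 4 were higher, with Il1rl1 itself among them. The share higher was 66.7%, beside 21.8% of all genes tested. That share counts the member Il1rl1, and Arg1 and Chil3, which passed the count filter only through IR24, where they were high. Areg, Gata3, Retnla and Il10 were among the genes too low to be tested. The share was thus partly set by the filter and by the make-up of the list. Arg1 (log2 fold change 5.95, SE 1.01, adjusted p = 0.00311) and Chil3 (5.85, SE 1.06, adjusted p = 0.00391) are genes of alternatively activated macrophages, and Chil3 also stood in the macrophage marker list. All 7 Sham reads of Chil3 were in Sham replicate 2, and without that library its fitted log2 fold change was 10.19, set against 0 reads. The chemokine Ccl24, named after its values were seen, was the fourth (2.12, SE 0.57, adjusted p = 0.0193), a call lost without Sham replicate 2 (adjusted p = 0.0776) or Sham replicate 3 (0.0545). Of the type 2 cytokines, Il4 had 186, 196 and 257 reads in IR24 and 294, 276 and 222 in Sham (log2 fold change -0.43, adjusted p = 0.121), and Il5 and Il13 were too low to be tested, and the median log2 fold change of the list was 2.15.

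The named genes whose course over the 6 libraries was closest to each member were found by the root mean square difference of their centred log2(CPM + 0.5) values among 16188 other genes. Closest to Il1rn were Hmox1, heme oxygenase 1 (0.177), Adam8 (0.225) and Saa3 (0.238), against a median distance of 2.38. Closest to Il33 were Tlr1 (0.108), Eif4ebp1 (0.114) and Ccl6 (0.115), against 1.36. For Il1b they were Col2a1, Gm20658 and Ltbp2 (0.132 to 0.196), for Il1r2 Tmem106a, Mir17hg and Soat2 (0.110 to 0.154), and for Il1r1 Pabpc1, Ankrd16 and Tcf12 (0.0241 to 0.0328). For Il1a they were Slamf6, Mitd1 and Ip6k3, for Il1rl1 Nifk, Rpp30 and Tnfsf11, for Il18 Scn9a, Mir1191 and Pcdh17, and for Il1rap Zfp317, Slk and Larp1b. No member was among the nearest 3 of another. The added 0.5 CPM is above the Sham mean of Il1a (0.344 CPM), Il1b (0.170), Il1r2 (0.261), Il1rl1 (0.212) and Il1rn (0), which flattens their changes. Genes near them can thus differ in fitted log2 fold change. For Il1b (3.86), Gm20658 had 9.07, while Col2a1 had 3.29 and Ltbp2 had 3.0. For Il1rl1 (2.17), Tnfsf11 had 4.74, Nifk 0.95 and Rpp30 1.01.

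**Figure D5:**
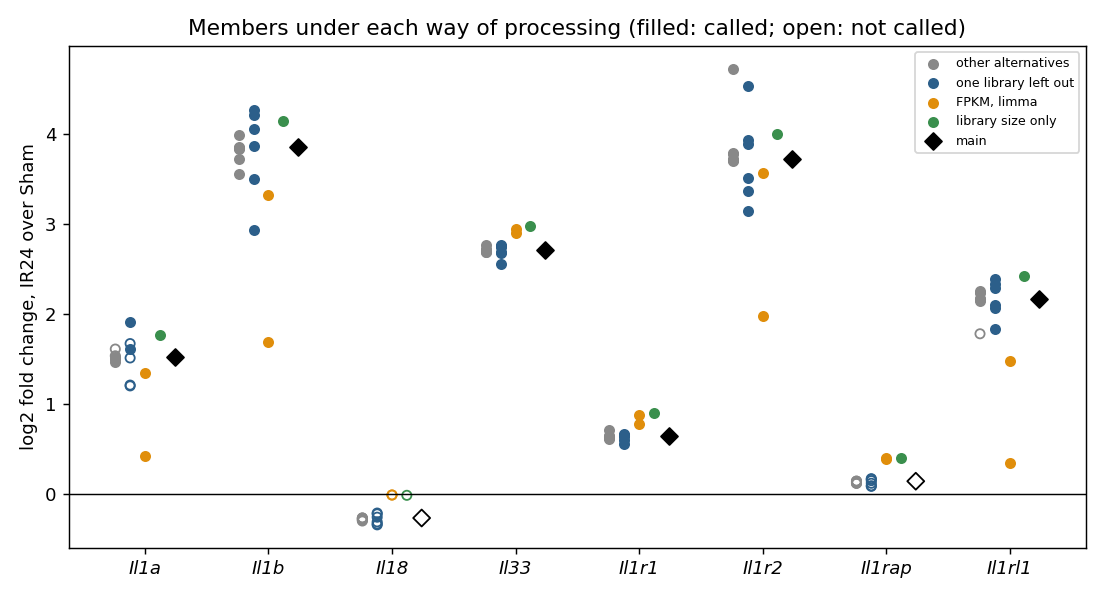
Log2 fold change of 8 members, IR24 over Sham, under the main analysis (black diamonds) and 16 alternatives, with filled points called and open points not called; Il1rn is left out because its Sham counts are 0. Il1a turns open in 6 alternatives, Il1rap turns filled in 3, and the values on log2(FPKM + 1) are lower for the members of low level.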

How the data were processed

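Hippocampal RNA from 3 IR24 and 3 Sham pools was sequenced. Per the study's methods the authors aligned reads with Tophat 2 to an Ensembl genome and counted them over genes with HTSeq; the processing notes of the labels name Bowtie 0.12.2 and mm8. The deposited table gives raw counts per gene and the authors' FPKM, on identifiers and positions of the BALB/cJ strain (40303 genes) and on 1083 loci assembled by the authors, although the mice were C57BL/6J per the methods (C57BL/6 in the labels). Lengths implied by the FPKM were within 1% of the length column for 30.5% of 16250 genes. Whether counting used strand is not given in the sources used here. The authors' p-values and adjusted p-values were not used. The 11257 unnamed genes (4.29% to 4.80% of reads) stayed in the fit, and the remainders of 4 split lines were dropped.

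The test on counts was that of edgeR 4.0.16, run in R 4.3.3 (filterByExpr, TMM scaling, robust quasi-likelihood F-test) with Benjamini-Hochberg adjustment over 18569 genes; the SE is the absolute log2 fold change over the square root of F, and intervals are 95% intervals from the t distribution of the fit. Alternatives used DESeq2 1.42.0, limma 3.58.1 on log2(FPKM + 1 or 0.1), other scalings and filters, a replicate block, a choroid plexus covariate and left-out libraries. A gene without reads was given a bound at 3 counts per library, which covers counting error only. Such a bound is for the mean of the IR24 libraries, and a single IR24 library can lie below it. Besides the members, each list names up to 3 called genes of largest log2 fold change upwards and up to 2 downwards, 4 in all. Every gene of the family that was found by name is also named. The replicates were separate pools, and no pair of libraries had identical counts. Scripts were tested on simulated data. The members and lists were chosen with earlier results of these data known.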

Additional observations from a re-analysis of the deposited data

How the results depend on the processing

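The number of members called was 7 in the main analysis and 5 to 8 in every alternative. Among them it was 6 to 7 with 1 library left out, 6 with a fold change over 2 and 5 with 2 against 2 libraries. It was 8 without scaling for library composition. No member changed direction in any alternative. Il1b, Il33, Il1rn, Il1r1 and Il1r2 were called in all 16 alternatives. Il1a lost its call in 6 (adjusted p = 0.0783 with the replicate block and 0.0917 in the 2 against 2 comparison, besides the left-out libraries), Il1rl1 in 1, and Il1rap gained one in 3; the cause was not tested. The count among other family members, in either direction, moved from 2 to 6 with the DESeq2 Wald test, which had no count filter. The cause of that move was not tested. With 1 library left out, the count ranged from 1 (without Sham replicate 3) to 5 (without IR24 replicate 3). Without IR24 replicate 1 it was 3. The other list counts stayed within 1.5 times. With the 0.1 FPKM added in place of 0.01, the log2 difference of Il1rn over Il1a plus Il1b was 3.56 in place of 6.59, and every ratio kept its direction. That of Il1rl1 over Il33 was -1.48 in place of -0.60, with an exact permutation p of 0.1 in place of 0.3. With the replicate number as a block 6 members were called, all but Il1a of the 7, in place of 7; the deviations of same-numbered libraries correlated at -0.0967, 0.0556 and -0.184, so the numbers gave no sign of pairing the samples. Il1a, Il1b, Il1r2 and Il1rl1 rest on 3 to 20 reads per Sham library, so their fold changes are imprecise, and for 3 pools a group the p-values measure the spread between pools only.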

Other observations

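Sham replicate 1, in which Il1r2 had 19 reads against 5 and 6 in the other Sham libraries, was also the highest Sham library for several IL-1-responsive genes, which were picked after their values were seen. Ccl2 had 73 reads there against 9 and 0, Sele 26 against 0 and 0, Selp 28 against 2 and 1, Lcn2 318 against 60 and 12, and Icam1 381 against 207 and 102. Il1b was lowest in the same library, with 3 reads against 7 and 9, and Il1rn had 0 reads in all 3. The choroid plexus markers summed to 177.1 CPM in it, against 3854 and 6387 in the other Sham libraries.

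In the receptor cluster on chromosome 1 of the BALB/cJ assembly, the table lists Il1r2, Il1r1, Il1rl1, Il18r1 and Il18rap in this order on the plus strand, from 37417115 to 37900017. Il18r1 starts at 37805309, just after the end of Il1rl1 at 37805172, and had at most 2 reads in any library, while its neighbours on either side were higher in IR24. Between Il1r1 and Il1rl1 lies a gene model without a name, at chr1:37664451-37708969, with 125, 30 and 38 reads in IR24 and 25, 12 and 7 in Sham (log2 fold change 1.95, SE 0.64, adjusted p = 0.0393). Its name is not analysed here.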
